A study of Drosophila melanogaster with 3 samples.

Results

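Of the authors' optimal binding peaks of the eGFP-tagged transcription factor Ewg in the fly embryo, 191 (2.81%) had their summit at the start of a noncoding RNA gene and away from every protein-coding start. A peak was counted when its summit lay over 500 bp from each protein-coding transcript start and within 500 bp of a transcript start of a noncoding RNA gene in Ensembl release 115. The choice used position alone, not signal. By RNA class, 162 of these peaks lay at long noncoding RNA (lncRNA) genes, 14 at microRNA (miRNA) genes, 8 at small nuclear RNA (snRNA) genes, 6 at transfer RNA (tRNA) genes and 4 at small nucleolar RNA (snoRNA) genes, with 3 peaks in more than 1 class. The lncRNA class holds every other gene of the annotation's ncRNA biotype, and the miRNA class was read from transcript biotypes and names. The rest of the optimal set is 3277 peaks within 500 bp of a coding start and 3325 near neither kind of start. Of the former, 143 lay within 500 bp of a noncoding start as well and are not included.

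The data are chromatin immunoprecipitation sequencing (ChIP-seq) peak lists from whole Drosophila melanogaster embryos aged 0 to 14 hours, males and females pooled. The animals came from 1 transgenic line in which ewg carries eGFP at its C-terminal end, and chromatin sonicated to 200 to 800 bp was precipitated with an anti-GFP antibody. There are 3 biological replicates in 1 group and no untreated or untagged sample among them, so comparisons are between replicates and between kinds of peak. The 3 replicates show the spread of the assay, and a whole embryo mixes all its tissues, so neither the cell type that gave a peak nor the share of cells with it can be told.

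Ewg, encoded by erect wing, is a DNA-binding protein of neurons and muscle and the fly homologue of the vertebrate activator NRF-1, which binds a GC-rich palindrome. RNA polymerase II transcribes lncRNAs, primary miRNA transcripts and most snRNA genes, whereas RNA polymerase III transcribes tRNA genes, U6 and 7SK. A miRNA hairpin and many snoRNAs are cut from longer transcripts, so their annotated starts are processed ends rather than sites of initiation.

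The NRF-1-type palindrome is printed for members of several classes, because it is the sequence the factor's family is known to bind. Each sequence is 50 bases of the plus strand of dm6, from the RefSeq assembly, with the palindrome match in capitals. An exact match is GCGC, then AT, AC or GT, then GCGC, on either strand; it is a true palindrome with AT alone. The matches at CR45559, CR44951 and the tRNA gene, the last with GT, are exact by this definition, and the other 3 have 1 mismatch to it. They stand, in the order printed, at chr3R:6893261-6893310, chr3R:26606640-26606689, chr3R:20890588-20890637, chr3L:12627781-12627830, chr2L:17574886-17574935 and chr3L:3090562-3090611.
lncRNA:CR45559: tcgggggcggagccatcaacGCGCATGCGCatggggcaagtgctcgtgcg
lncRNA:CR44951: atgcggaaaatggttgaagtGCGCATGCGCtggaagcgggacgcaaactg
tRNA:Thr-CGT-1-1: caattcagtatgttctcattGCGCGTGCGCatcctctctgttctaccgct
lncRNA:CR32111: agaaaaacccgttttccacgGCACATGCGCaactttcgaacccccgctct
mir-287: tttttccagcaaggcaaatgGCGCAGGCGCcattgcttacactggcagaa
snRNA:U5:63BC: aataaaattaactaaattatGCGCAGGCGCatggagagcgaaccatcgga
In CR32111 the centre of the match lay 6 bp from the summit, and in the tRNA gene 10 bp. In CR45559, which held the strongest peak of the set, it lay 51 bp from the summit.

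Several members lay at miRNA genes or at lncRNAs that contain hairpins, and the mature RNAs show which seed families these are. Seeds, bases 2 to 8, pair with target messages and are in capitals; sequences are from dm6 through the RefSeq annotation of mature products.
mir-1000 5p: aUAUUGUCcugucacagcagu
mir-279 3p: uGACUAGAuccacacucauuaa
mir-996 3p: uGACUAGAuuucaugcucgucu
mir-2c 3p: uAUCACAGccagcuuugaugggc
mir-13a 3p: uAUCACAGccauuuugaugagu
mir-13b-1 3p: uAUCACAGccauuuugacgagu
mir-ban 3p: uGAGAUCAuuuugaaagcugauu
mir-315 5p: uUUUGAUUguugcucagaaagc
mir-124 3p: uAAGGCACgcggugaaugccaag
mir-iab-8 5p: uUACGUAUacugaagguauaccg
The mir-279 and mir-996 hairpins share 1 seed and stand in 1 lncRNA, CR31044. The mir-2c, mir-13a and mir-13b-1 hairpins share another seed and also stand in 1 lncRNA, CR45911.

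The snRNA genes are shown by the 100 bases upstream of the start, on the gene's strand, to show the promoter element that most of these genes share. Capitals mark TTCCCAA, the core of the proximal sequence element that the snRNA-activating complex binds.
snRNA:U1:95Ca (chr3R:23859631-23859730, minus strand): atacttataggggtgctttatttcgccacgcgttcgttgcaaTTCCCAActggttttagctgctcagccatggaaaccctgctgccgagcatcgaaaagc
snRNA:U5:63BC (chr3L:3090701-3090800, plus strand): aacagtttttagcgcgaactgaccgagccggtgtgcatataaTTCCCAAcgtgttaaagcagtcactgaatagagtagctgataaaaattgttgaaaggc
snRNA:U4:39B (chr2L:21215179-21215278, minus strand): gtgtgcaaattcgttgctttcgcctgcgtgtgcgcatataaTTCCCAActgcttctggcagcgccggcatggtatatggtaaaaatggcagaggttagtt
snRNA:U2:34ABb (chr2L:13215739-13215838, plus strand): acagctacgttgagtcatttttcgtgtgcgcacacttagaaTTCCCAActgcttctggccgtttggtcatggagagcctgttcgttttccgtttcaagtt
snRNA:7SKa (chr3R:7474997-7475096, minus strand): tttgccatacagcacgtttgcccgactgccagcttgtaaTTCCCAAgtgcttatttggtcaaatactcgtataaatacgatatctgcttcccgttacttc
snRNA:U6:96Ac (chr3R:24557115-24557214, plus strand): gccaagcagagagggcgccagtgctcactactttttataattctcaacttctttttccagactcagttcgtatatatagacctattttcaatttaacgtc
The first base of the core stood 58 bases upstream of the start in U1:95Ca and U5:63BC, 59 in U4:39B and U2:34ABb, and 61 in 7SKa, and its exact letters were not in this window of U6:96Ac. On either strand, 26 of the 32 annotated snRNA genes held the core in this window (81.2%), against 2.06% of lncRNA genes and 1.74% of protein-coding genes. Of the 8 snRNA genes with a peak, 6 held it. The summit lay 11 bp from the centre of the core at U1:95Ca, 86 bp at U4:39B and 115 and 106 bp for the pair of U5:63BC summits. It lay 204 bp away at U1:21D, 241 bp at U2:34ABb and 326 bp at 7SKa, so only U1:95Ca had its summit at the core.

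The share of genes with an Ewg-eGFP peak differed between the RNA classes and was below that of coding genes in 4 of them beyond the counting error. A gene was called bound when an optimal peak's summit lay within 500 bp of any of its starts, whether or not a coding start was also near. A gene with more annotated starts thus had more chances to be called bound, and the shares were not adjusted for this. By this measure 312 of 3371 noncoding genes were bound (9.26%), beside 26.4% of 13945 protein-coding genes. Among lncRNA genes 256 of 2520 were bound (10.2%, exact 95% interval 9.01 to 11.4%), and among miRNA hairpins 18 of 260 (6.92%, 4.15 to 10.7%). Of tRNA genes 19 of 290 were bound (6.55%), and of snoRNA genes 11 of 269 (4.09%). The snRNA genes stood highest among the noncoding classes, with 8 of 32 bound (25%), but the small class gives a wide interval, 11.5 to 43.4%, that includes the coding share. The intervals cover counting error only, genes that share a start region were each counted, and these shares were not tested against each other.

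**Figure D1:**
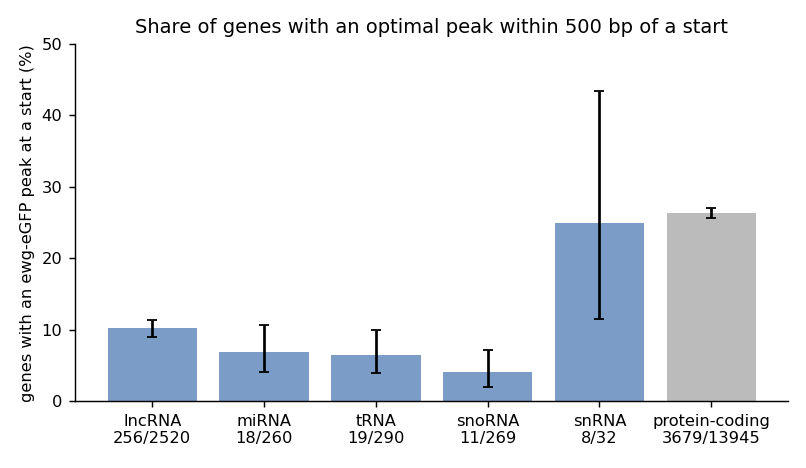
Share of annotated genes with an optimal peak within 500 bp of a transcript start, by class; bars are percentages, error bars exact 95% binomial intervals, and the numbers under each class give bound and annotated genes. The lncRNA, miRNA, tRNA and snoRNA shares lie between 4.09% and 10.2%, below 26.4% of protein-coding genes, and the snRNA interval spans the coding value.

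Part of these genes share their start region with a coding gene, and the shares were lower without them. With only genes whose start lay over 500 bp from every coding start, 207 of 2823 noncoding genes were bound (7.33%). The count was 168 of 2065 for lncRNA genes (8.14%), 15 of 231 for miRNA hairpins, 12 of 258 for tRNA genes and 5 of 240 for snoRNA genes. It was 7 of 29 for snRNA genes (24.1%). Among lncRNAs the share was higher for genes that contain a hairpin. Of the 37 lncRNA genes that hold a miRNA hairpin on their own strand, 13 were bound (35.1%, 20.2 to 52.5%), against 243 of 2483 other lncRNA genes (9.79%, 8.65 to 11.0%). Genes named as antisense RNAs were bound in 53 of 503 cases (10.5%), and other lncRNA genes in 203 of 2017 (10.1%). By the members alone, which lie away from coding starts, 14 antisense-named genes (2.78%) and 135 others (6.69%) were bound. These percentages are of all genes of each kind, also those near a coding start. The member rule leaves out peaks there, so the gap is not read as a trait of antisense genes. Both splits of the lncRNA genes were chosen after their values were seen and were not tested. Several hairpin hosts were bound at alternative starts, and the numbers of starts per gene were not compared.

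Peaks at noncoding starts were detected in the individual replicates about as often as other peaks. For presence, a replicate's own list was cut to its strongest regions, as many as there are optimal peaks, and a summit of it had to lie within 100 bp of the member's. All 3 replicates met this for 126 of the 191 (66.0%, exact 95% interval 58.8 to 72.7%), beside 62.1% of all optimal peaks. Another 42 members met it in 2 replicates and 23 in 1. Replicate 1 held 163 of the members (85.3%), replicate 2 held 167 (87.4%) and replicate 3 held 155 (81.2%). Over all optimal peaks the shares were 82.9%, 83.5% and 82.1%.

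In signal, these peaks stood between peaks at coding starts and peaks with no start nearby. The authors' deposited signal was scaled within each replicate so that 1 is the median of the 5852 optimal peaks found in all 3 permissive lists, and this scaled value is called relative signal. Of the 191 members, 169 were among these peaks. The median relative signal of the members was 1.03, 1.12 and 1.06 in replicates 1, 2 and 3. It was 0.885, 0.857 and 0.917 for the optimal peaks near neither kind of start, and 1.15, 1.16 and 1.12 for those at coding starts. The members' median thus lay above that of the peaks near no start and below that of the coding start peaks in each replicate. On the log2 scale the members exceeded the peaks near no start by 0.22, 0.39 and 0.22, a mean of 0.28 ± 0.10 (SD, n = 3; exact sign-flip permutation test, two-sided, p = 0.25). Against coding start peaks the difference was -0.16, -0.05 and -0.08, a mean of -0.10 ± 0.06 (SD, n = 3; exact test, p = 0.25). With 3 replicates the test cannot go below 0.25, so p reaches no usual threshold, and the sign in each replicate and the size are what the data give. With members limited to 250 bp of a start, the difference from peaks near no start was 0.10, 0.43 and -0.09, a mean of 0.14, and the sign was no longer shared by the replicates. The signal difference was about as large against the peaks inside coding genes, 0.26 ± 0.11, as against those between coding genes, 0.30 ± 0.08.

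Among the strongest 679 of all optimal peaks were 22 members (11.5% of the members), beside 13.4% of the coding start peaks and 6.53% of the peaks near no start. Of 15 members with the largest deposited signal at lncRNA starts, all were present in all 3 replicates. They were picked on the pooled signal of the same replicates, so this presence largely follows from the choice. The largest was at CR45559, on the minus strand of chromosome 3R, with its summit at 6893336 and 126 bp downstream of the start. Its relative signal was 6.03, 9.64 and 6.52 (7.40 ± 1.96, SD, n = 3), and the nearest coding start, that of the segmentation gene ftz, lay 29012 bp away. Replicate 2 stood above the other replicates there. At CR31840 on 2L the signal was 6.33, 7.36 and 7.69 (7.13 ± 0.711), with the summit 17 bp downstream of the start, so the replicates were closer together. CR32111 on 3L, 18180 bp from the Iroquois homeobox gene caup, gave 4.70, 7.40 and 4.76.

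The other strong lncRNA members had varied neighbours. CR44339 on 2R, 4174 bp from the start of the Polycomb group gene Psc, gave 5.66, 5.14 and 5.93. CR44933 on 3R, 14937 bp from Sodh1, gave 3.99, 7.0 and 3.81, with replicate 2 apart from the other replicates. CR45668 on X, 698 bp from the cytoplasmic actin gene Act5C, gave 4.61, 6.22 and 3.59. A peak at 698 bp passes the distance rule for coding starts by a small margin, and which of the neighbouring starts it serves was not tested. CR44810 on 2R, 4540 bp from slbo, which encodes a C/EBP factor, gave 4.52, 3.63 and 5.11. The antisense gene CR44429 stands opposite gce, a juvenile hormone receptor gene, and gave 4.27, 2.90 and 4.51. CR46036 stands opposite osa, which encodes a subunit of the Brahma chromatin remodelling complex, and its replicates were close together at 3.35, 3.56 and 3.64. CR44867, opposite the adhesion gene beat-Ib, gave 3.37, 3.14 and 4.01. CR44679 and CR44828 closed the list with means of 3.27 ± 0.857 and 3.25 ± 1.15.

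**Figure D2:**
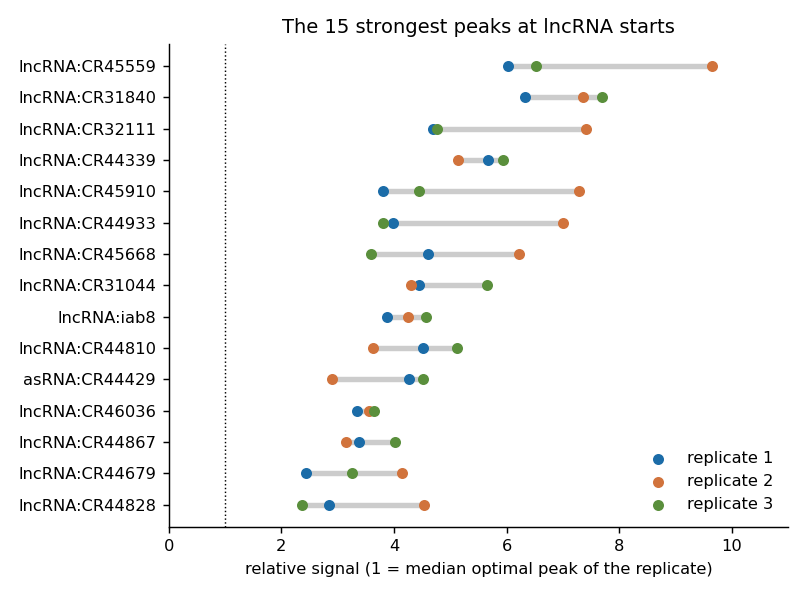
Relative signal of the 15 strongest members at lncRNA starts in each replicate; 1, the dotted line, is the replicate's median optimal peak, points are replicates and grey bars join the lowest and highest. Every point lies above 1, and replicate 2 is far above the others at CR45559, CR32111, CR45910 and CR44933.

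Relative signal is scaled to each replicate's median, so an offset over all optimal peaks is removed beforehand. Over the 169 members with a value in each replicate, replicate 2 was the highest at 71 and the lowest at 70. Replicate 1 was the highest at 35 and the lowest at 50.

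The lncRNAs that contain miRNA hairpins held 18 of the members, at 13 genes. CR45910 contains mir-1000 and runs antisense within msi, the gene of the RNA-binding protein Musashi. Its peak, 131 bp upstream of the start, had a relative signal of 3.8, 7.29 and 4.45 (5.18 ± 1.86). CR31044 is the host of mir-279 and mir-996, which are known to repress nerfin-1, and its peak, 114 bp upstream, gave 4.45, 4.31 and 5.65 (4.80 ± 0.738). A second, weaker member inside this lncRNA lay 415 bp upstream of the mir-279 hairpin, at 0.741, 0.520 and 0.571. The lncRNA iab8 of the bithorax complex, which carries mir-iab-8, held 2 members at 1 start. This start, at 16899832, is an alternative one inside the gene, whose 5′ end on the minus strand is at 16923231. The stronger gave 3.88, 4.24 and 4.57 and the weaker 2.12, 3.03 and 2.40, and both come from 1 deposited interval.

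CR45911, the host of mir-2c, mir-13a and mir-13b-1, had a peak 57 bp downstream of its start with 2.28, 4.70 and 2.19. A separate member 407 bp upstream of the mir-2c hairpin gave 0.943, 2.49 and 1.44, and at both sites replicate 2 was the highest. CR43626, the host of mir-282, gave 3.64, 2.05 and 3.24 at its stronger member, which lay at an alternative start inside the gene. CR46004, the host of mir-276b, gave 1.85, 3.45 and 2.83. CR44206, the host of mir-184, gave 1.87, 2.40 and 1.69. Members at the hosts of mir-14, mir-8, mir-10, mir-281-1, mir-124 and mir-4951 were weaker. The one at the host of mir-8, CR43650, also lay at an alternative start inside the gene. The peak at CR45919, the host of the neuronal mir-124, ranked 6340 and gave 0.164, 0.887 and 0.532. The peak at Hsromega, the heat-shock lncRNA that organises omega speckles and contains mir-4951, had 1.25 in replicate 1, 1.71 in replicate 3 and no region in replicate 2.

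Among peaks within 500 bp of a miRNA entry, the median relative signal over the 12 members measured throughout was 1.13, 1.41 and 1.27. This exceeded the peaks near no start by 0.50 ± 0.18 on the log2 scale (exact test over n = 3 replicates, p = 0.25, above in 3 of 3). After mir-1000 the strongest was at mir-9374 in Hr39, a nuclear receptor gene whose own start lay 658 bp away, with 2.64, 4.80 and 2.96. The peak at mir-9378 gave 2.26, 1.61 and 2.34, that at mir-287 gave 1.66, 1.68 and 1.46, and that at mir-4978 gave 0.825, 1.78 and 0.865. At mir-9377 the values were 1.36, 0.508 and 1.5.

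Bantam, written mir-ban in the annotation, is a growth-promoting miRNA. Its member had 1.30, 0.784 and 1.11, but the summit lay 518 bp from the hairpin start and met the rule only through the mature-product entry, 467 bp away. The member 329 bp upstream of mir-315, a miRNA that activates Wingless signalling, had 1.13 in replicate 2, 0.558 in replicate 3 and no region in replicate 1. Of the 14 miRNA members, 7 had their nearest noncoding start outside coding genes.

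The snRNA members were weaker than the lncRNA ones. Their median relative signal over 6 peaks was 0.702, 1.04 and 0.745, and the log2 difference from peaks near no start was -0.13 ± 0.34 (exact test over n = 3 replicates, p = 0.5, above in 1 of 3). U1 pairs with the 5′ splice site, and U1:95Ca had the strongest of these peaks, at 1.59, 2.79 and 1.55, its summit 66 bp upstream. U5:63BC had 2 members, of which the stronger gave 1.10, 2.16 and 0.658 with its summit 170 bp upstream. U4:39B gave 0.820, 1.16 and 0.966, U2:34ABb gave 0.584, 0.917 and 0.747, and U1:21D gave 0.514, 0.450 and 0.744. For the polymerase III genes, 7SKa gave 0.368, 0.721 and 0.424, and the peak between U6:96Ab and U6:96Ac had a region in replicate 2 alone, at 0.650.

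The snRNA genes exist in near-identical copies, and this touches their values. All 32-base words were unique in the genome in 185 of the 191 summit windows, which span 100 bp to each side of the summit, but in 3 of the 8 snRNA windows. The share of unique words was 93.5% at U1:95Ca, 71.2% at U4:39B, 54.7% at U2:34ABb and 48.8% at U1:21D, and how the authors placed reads with several matches is not given in the sources used here. Signal and summit position at these copies are therefore uncertain. The stronger U5:63BC window and those of U6:96Ac and 7SKa were fully unique.

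Of the tRNA class, the 6 members were mostly near the typical peak in signal. The peak 76 bp upstream of tRNA:Thr-CGT-1-1, with the exact palindrome printed above, gave 1.03, 1.84 and 0.786. That at tRNA:Gln-CTG-1-1 gave 1.08, 1.63 and 0.788, and that at tRNA:Gln-TTG-2-1 gave 1.20, 0.675 and 1.15. The ranges of these 3 sites over the replicates overlapped. The member at tRNA:Lys-TTT-1-1 gave 0.534, 0.472 and 0.746. The member at a cluster of tRNA:Leu-CAA-2-1 and tRNA:Ile-AAT genes had 0.160 and 1.03 in replicates 1 and 2 and none in replicate 3. The last tRNA member was also a snoRNA member, between tRNA:Glu-TTC-1-5 and snoRNA:185, with 1.10 and 0.757 in replicates 1 and 2.

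Of the snoRNA members, the strongest lay 74 bp upstream of Uhg4, a noncoding host gene whose introns carry snoRNAs, and gave 3.55, 2.56 and 2.57 (2.89 ± 0.569). The remaining ones were weaker: snoRNA:Or-CD13, opposite egr, gave 0.898, 0.916 and 1.19, and scaRNA:MeU5-C46, inside CG1142, gave 0.658, 0.772 and 0.900. Uhg8 had a peak at a coding start shared with it, and the hosts Uhg1, Uhg2, Uhg3, Uhg5 and Uhg7 had none within 500 bp.

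**Figure D3:**
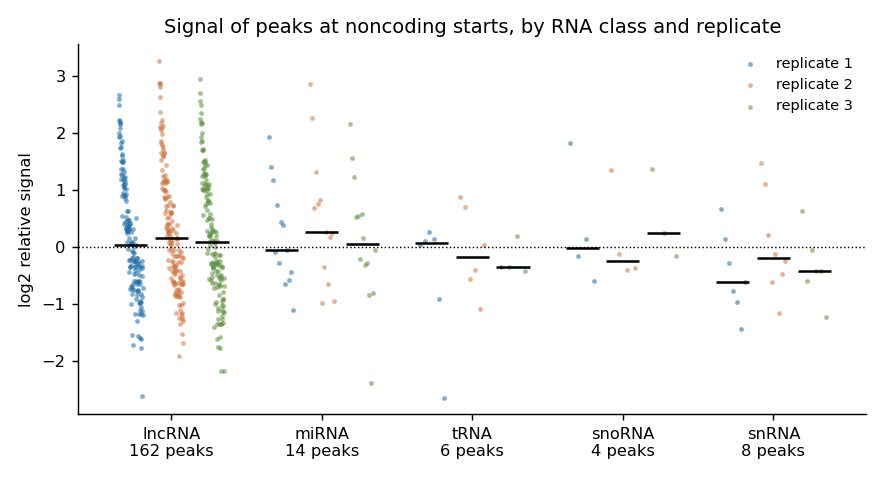
Log2 relative signal of each member by RNA class and replicate; points are peaks with a region in that replicate, also where another replicate has none, black lines are their medians and the dotted line is the median optimal peak. The lncRNA class spans the widest range, and the medians of the snRNA class lie below 0 in each replicate.

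Other well known noncoding genes had no optimal peak at their starts. The dosage compensation RNAs roX1 and roX2 had their nearest optimal summits 5939 and 1414 bp away. The bithorax lncRNAs bxd and iab4 had theirs at 2419 and 2610 bp, and let7C, the primary transcript of let-7 and mir-125, at 21861 bp. Both 7SL genes, which give the RNA of the signal recognition particle, and RNaseP:RNA and RNaseMRP:RNA also had none within 500 bp. The lncRNA yar, which lies upstream of yellow, held a member near the bottom of the list, ranked 6775, with 0.439, 0.406 and 0.621.

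Summits at noncoding starts were spread more loosely around the start than those at coding starts. The median distance was 215 bp for the members and 106 bp for the coding start peaks, and 38 members (19.9%) against 47.3% of coding start peaks lay within 100 bp. The members' share is close to that of an even spread over the 500 bp on each side that the rule allows. Their bins of 100 bp held 7.33% to 10.5% of members each downstream of the start and 4.71% to 17.8% upstream. In the strongest regions of each replicate's own list the share within 100 bp was 20.4%, 18.2% and 18.7% at noncoding starts and 46.4%, 50.8% and 42.4% at coding starts. The difference was -27.4 ± 4.61 percentage points (SD, n = 3; exact test, two-sided, p = 0.25, the smallest possible), lower in each replicate. Upstream of the start lay 109 members (57.1%) and 80.0% of coding start peaks. Each member's summit was measured to its nearest noncoding start of any class, and each coding start peak's to its nearest coding start. A class median can thus include distances to another class, such as 74 bp to the lncRNA gene Uhg4 among the snoRNA members. The median distance by class was 218 bp for lncRNA, 313 bp for miRNA, 130 bp for snRNA, 66 bp for tRNA and 42 bp for snoRNA members. Members within 100 bp of the start differed in signal from the others by -0.10 ± 0.24 on the log2 scale, less than the spread (exact test over n = 3 replicates, p = 0.75).

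**Figure D4:**
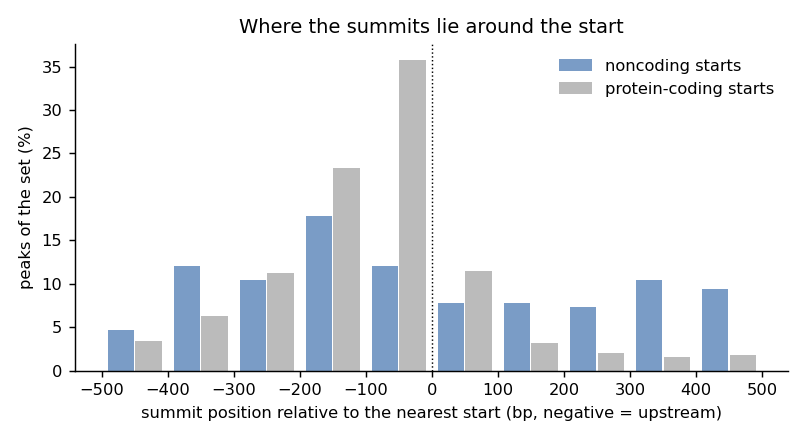
Position of the summit relative to the nearest start in bins of 100 bp, for the members (blue) and for optimal peaks at coding starts (grey), as a percentage of each set. In the 100 bp just upstream of the start lie 35.8% of coding start peaks and 12% of members, whose largest bin, 17.8%, is the next one upstream.

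For most members the noncoding start lay outside coding genes. The noncoding start lay in no coding gene for 133 of the 191 (69.6%), on the strand opposite to a coding gene for 36, on its strand for 21 and in both for 1. The summit itself lay within a coding gene for 59 members (30.9%), beside 68.5% of the peaks near neither kind of start. The rule ties each member to an annotated noncoding start, and the same shares over all such starts are not given here. The 69.6% and 30.9% are therefore not read as traits of the members. The distance to the nearest coding start ranged from 541 to 40318 bp with a median of 3340 bp, and it was over 10000 bp for 38 members. It was within 1000 bp for 28 members, at which a coding start is a near neighbour.

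Just inside the 500 bp limit were the peaks at CR44682 and CR46204, at 500 and 497 bp with deposited signals of 255 and 193. Just outside were those near CR44619 and CR45659, at 502 and 505 bp, with signals of 1199 and 992. Across the coding limit, Uhg4 and asRNA:CR44429 were kept at 541 and 542 bp, and peaks at asRNA:CR46044 and CR45618 were left out at 476 and 475 bp. The members had 175 distinct nearest genes, of which 16 had 2 members, and 25 members had another optimal summit within 500 bp, so neighbouring members can share DNA fragments.

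By chromosome, X held 20 members (10.5%), beside 18.0% of all optimal peaks and 12.8% of noncoding genes. Chromosome arm 2L held 50 (26.2%), beside 18.6% and 23.7%, and 2R held 47 (24.6%), beside 18.3% and 19.3%. The remaining members were 32 on 3L, 41 on 3R and 1 on chromosome 4.

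Among regions away from coding starts, the strong ones lay at noncoding starts more often than the weak ones in 3 of 3 replicates; over all regions the difference was small and depended on how many were called strong. In the same strongest regions of each replicate's own list, 2.89%, 2.91% and 2.84% met the rule, against 2.49%, 2.87% and 2.49% of the weaker regions. The difference was 0.266 ± 0.189 percentage points (SD, n = 3; exact test, two-sided, p = 0.25, above 0 in 3 of 3), and in replicate 2 it was 0.0493 points. With 2 times as many regions called strong it was 0.222, -0.159 and 0.260 points, a mean of 0.107, and replicate 2 had the opposite sign. Coding starts took 47.8% of the strong and 19.3% of the weak regions, which leaves unequal room for the rest. Of the regions over 500 bp from coding starts, 5.46%, 5.97% and 5.16% of the strong ones and 2.97%, 3.89% and 2.95% of the weak ones were at noncoding starts. This difference, chosen after the data were seen, was 2.26 ± 0.208 points (p = 0.25 in the exact test, n = 3), and every replicate showed it. Bases that meet the rule make up 2.17% of the genome away from coding starts.

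**Figure D5:**
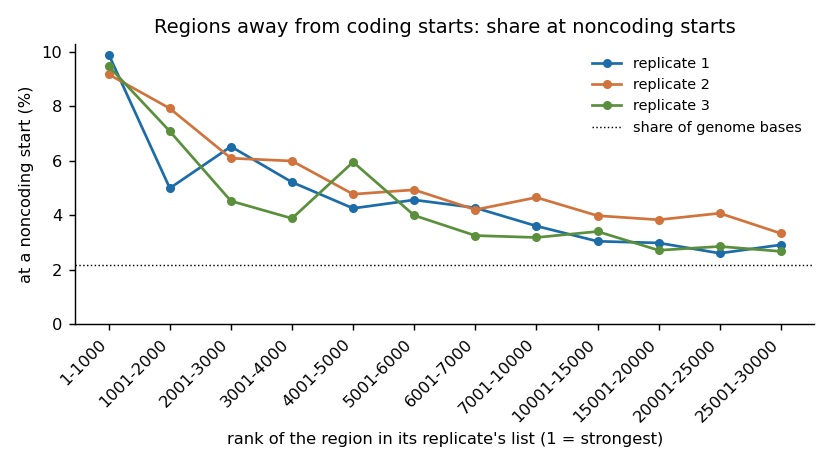
Of the regions over 500 bp from coding starts, the percentage at a noncoding start by rank of the region in its replicate's list; lines are replicates, and the dotted line is the share of genome bases, 2.17%. The first bin lies between 9.17% and 9.90%, and the last between 2.67% and 3.33%.

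The RNA classes differed in this respect. Away from coding starts, lncRNA starts took 4.71% ± 0.269 of the strong and 2.62% ± 0.162 of the weak regions (mean ± SD over 3 replicates). For miRNA entries the shares were 0.443% ± 0.0348 and 0.219% ± 0.0478, and for snRNA starts 0.171% ± 0.0388 and 0.0358% ± 0.00505. In each of these 3 classes all 3 replicates were higher among the strong regions. The snRNA shares rest on few regions, 6, 7 and 5 strong and 6, 7 and 7 weak ones in replicates 1, 2 and 3. Their SDs do not cover counting error. For tRNA starts the strong share was 0.171% ± 0.0606 and the weak share 0.292% ± 0.255, with 1 of 3 replicates higher, so the difference was within the spread. Replicate 2 held 100 weak regions at tRNA starts, against 35 in replicate 1 and 22 in replicate 3. For snoRNA starts the shares were 0.132% ± 0.0227 and 0.138% ± 0.0979.

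A GAGA repeat was more frequent at the members than at peaks near no start beyond the counting error. The palindrome and a shorter hexamer were slightly more frequent, but their intervals include the share of those peaks. The exact palindrome lay within 100 bp of the summit in 6 members (3.14%, exact 95% interval 1.16 to 6.71%). It was in 2.50% of peaks near no start, in 1.31% of coding start peaks and in 0 of the members' windows shifted by 1000 bp. With up to 1 mismatch it was in 24 members (12.6%, exact 95% interval 8.22 to 18.1%), beside 10.9% of peaks near no start, and in 1.57% of the shifted windows. In the strongest regions of each replicate the exact palindrome was in 3.06%, 3.54% and 2.59% of those at noncoding starts and in 2.33%, 2.76% and 2.11% of those near no start, a difference of 0.662 ± 0.163 percentage points (SD, n = 3; exact test, two-sided, p = 0.25, above in 3 of 3). With up to 1 mismatch the difference was 0.533 ± 0.699 points, above in 3 of 3 and smaller than its SD. The replicates share many of their sites, so these SDs, and those given for the other motifs, do not cover counting error. The hexamer TGCGCA was in 39 members (20.4%, 14.9 to 26.8%), beside 17.2% of peaks near no start and 3.66% of shifted windows. In the strongest regions of each replicate the hexamer was in 17.9%, 24.2% and 18.1% of those at noncoding starts and in 14.1%, 20.1% and 13.4% of those near no start. The difference was 4.21 ± 0.493 percentage points (SD, n = 3; exact test, two-sided, p = 0.25, above in 3 of 3). Among the snRNA members, U1:95Ca, the stronger U5:63BC peak and U4:39B held the hexamer. The letters were sought on both strands; the hexamer overlaps the palindrome, and most members hold neither, which says only that the letters are not in these windows.

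GAGAGAG, a sequence that GAGA factor binds, was in 31 members (16.2%, 11.3 to 22.2%), beside 9.95% of peaks near no start, 9.73% of coding start peaks and 3.66% of the shifted windows. In the replicates' own strong regions it was in 14.8%, 16.7% and 13.0% of those at noncoding starts and in 7.51%, 12.3% and 8.37% of those near no start. The difference was 5.42 ± 1.62 points (SD, n = 3; exact test, p = 0.25, above in 3 of 3). Of the 31 members with it, 30 were at lncRNA starts, the class that holds 162 of the 191 members. This is 18.5% of the lncRNA members, among them CR32111, CR44933, CR44679, CR45911 and CR46004. The core promoter element TATCGATA, bound by DREF, was in 0 members and in 6.77% of coding start peaks. The element GGTCACACT, bound by M1BP, was also in 0 members and in 4.76% of coding start peaks. A count of 0 of 191 allows a share of up to 1.91% at the exact 95% bound. Both elements were as rare at peaks near no start, in 0.391% and 0.361%. The tRNA B box, searched with its usual consensus, was in 0 members. This element lies inside the tRNA gene, and the windows reach only 100 bp from the summit. Summits at tRNA starts lay, for example, 76 and 275 bp upstream or 237 bp downstream, so most windows miss it. The 0 therefore gives no information on the tRNA genes.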

How the data were processed

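The deposited peak lists hold, per the file headers and file records, the authors' intervals with a summit and a signal value per region; signal is on the authors' scale and was not equalised between lists. For dm6 there are a permissive list for each of 3 replicates, a pooled permissive list of 30000 regions and an optimal list thresholded by irreproducible discovery rate. The dm3 lists were not used here. Which aligner and peak caller were run, and how multiply mapped reads were treated, is not given in the sources used here. Read counts are not part of the lists, so depth is unknown and no limits from depth are given; the number of replicates limits the precision.

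Members were found from deposited summits and Ensembl release 115 starts. That annotation lists mature miRNAs as separate noncoding entries, and both hairpin and mature entries count as starts. The members and lists were chosen with earlier results of these data known. Named genes were the 15 strongest lncRNA members, all members of classes with 10 or fewer, the 8 strongest miRNA members and members at a written list of well known noncoding genes; hairpin hosts and genes printed for a motif were named after their values were seen. Comparisons used exact two-sided sign-flip permutation over the replicates, checked on short made-up sets of values. The rule for members was checked on summits placed at simulated offsets from noncoding starts. Intervals are exact Clopper-Pearson at 95%. Searches covered both strands of 201 bp. The software was Python 3.11.15 with scipy 1.17.1, numpy 2.4.6, matplotlib 3.10.9 and pandas 2.3.3. Alternatives were other distance limits, presence limits and motif windows, a shorter list, gene bodies in place of starts and leaving out each replicate; the snRNA promoter element, the position shares per replicate, the list without mature miRNA entries and the shares away from coding starts were added after seeing the data.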

Additional observations from a re-analysis of the deposited data

How the results depend on the processing

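The number of peaks at noncoding starts followed the distance limit: it was 111 within 250 bp of a start, 320 within 1000 bp, and 399 when distance was taken to any base of the gene. It was 101 in the strongest 3396 optimal peaks, and 190 without mature miRNA entries, an alternative chosen after seeing the data. Bound noncoding genes numbered 177 within 250 bp, 535 within 1000 bp and 986 with every region of the pooled permissive list. Presence in all 3 replicates was 55.5% with summits matched within 50 bp, 72.8% within 250 bp, 47.1% by reciprocal overlap of 50%, 88.5% in the whole permissive lists and 93.1% for the strongest 3396 peaks. The palindrome with up to 1 mismatch was in 9.95% of members within 50 bp of the summit and in 15.8% of the strongest members. The mean log2 signal difference from peaks near no start ranged from 0.14 within 250 bp of a start, where replicate 3 was at -0.09, to 0.35 over 1000 bp from coding starts. The difference between strong and weak regions at noncoding starts was 0.426 points with fewer strong regions and 0.107 with more, where replicate 2 was at -0.159.

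With each replicate left out, and only peaks present in both others kept, the members numbered 137 to 142 and bound genes 229 to 244. The signal difference was 0.21 to 0.26, the motif share 12.7 to 13.1% and the difference between strong and weak regions 0.202 to 0.375. Presence without a replicate gives no value, because those peaks are present in both others by construction. No paired analysis was possible because there is only 1 group. No read counts are at hand, so depth could not be weighed. Near-identical snRNA copies, small classes and 3 replicates limit the class values.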
